A study of Mus musculus with 12 samples.

Results

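The soleus and the extensor digitorum longus (EDL) are hind limb muscles of opposite character: the soleus is slow and oxidative, the EDL fast and glycolytic. Their gene expression was compared here on the 3 soleus and the 3 EDL arrays, 6 of the 12 arrays of a study of mouse muscle cells, and the members are these 6 arrays, described across all genes. The other 6 arrays hold proliferating and differentiated C2C12 cells and serve only in an alternative fit. Each muscle sample was total RNA from the EDL or the soleus of both hind limbs of 1 male CD1 mouse from Charles River, 3 months old, with no treatment or transgene named in the labels. The labels do not say whether the EDL and the soleus of the same replicate number came from the same mouse.

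Skeletal muscle is built of fibre types. Slow fibres contract with the beta myosin heavy chain and slow troponins, pump calcium back with the cardiac and slow SERCA isoform, and draw on mitochondrial oxidation for sustained posture. Fast fibres use other myosin heavy chains and troponins, store and release calcium quickly, buffer it with parvalbumin and rely more on glycogen and glycolysis for short bursts. Mouse soleus holds slow and fast oxidative fibres mixed, whereas mouse EDL is nearly all fast.

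Labelled RNA was hybridised to Agilent mouse whole-genome arrays, and each array reports the brightness of every probe spot. The level of a gene is given as a normalized log2 signal: the log2 of the processed signal, scaled by the 75th percentile of its array. That percentile lay between 482 and 613 on the EDL arrays and between 476 and 641 on the soleus arrays. Between 57.4% and 72.8% of the probes were well above background on an array, and no spot of the 6 arrays was saturated. Pearson correlations over probes were 0.974 to 0.987 between arrays of the same muscle and 0.959 to 0.978 between arrays of different muscles. Replicate numbers 1, 2 and 3 are 3 slides, each with 1 EDL and 1 soleus array, and the EDL and soleus always held the same positions on a slide, so position and muscle cannot be told apart. The number of arrays, 3 for each muscle, limits the precision. A difference is soleus minus EDL on the log2 scale with its moderated standard error (SE) from limma with the slide as a block.

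Of 16450 genes tested, 1863 (11.3%) differed by at least 1 log2 unit at an adjusted p (limma, Benjamini-Hochberg) under 0.05, and such genes are called here. At that adjusted p alone, with no minimum size, 54.3% of the genes passed. In the soleus 918 genes (5.58%) were higher and 945 (5.74%) lower, so that 49.3% of the calls were higher. Counts of called members of a list are to be read against these shares. All 1863 called genes had the same sign on all 3 slides, and for 1799 of them the arrays of the muscles did not overlap; over all genes 75.5% and 50.2% did so. Differences of at least 3 log2 units, which is 8-fold, were found for 108 genes higher and 84 lower in the soleus. The median over all genes was -0.05. Scaling by the spike-in controls in place of the 75th percentile moved that median to -0.31, called 653 genes higher and 1611 lower, and left 28.8% of the calls higher. With background corrected by the normexp method only 61 genes were called higher and 65 lower.

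**Figure D1:**
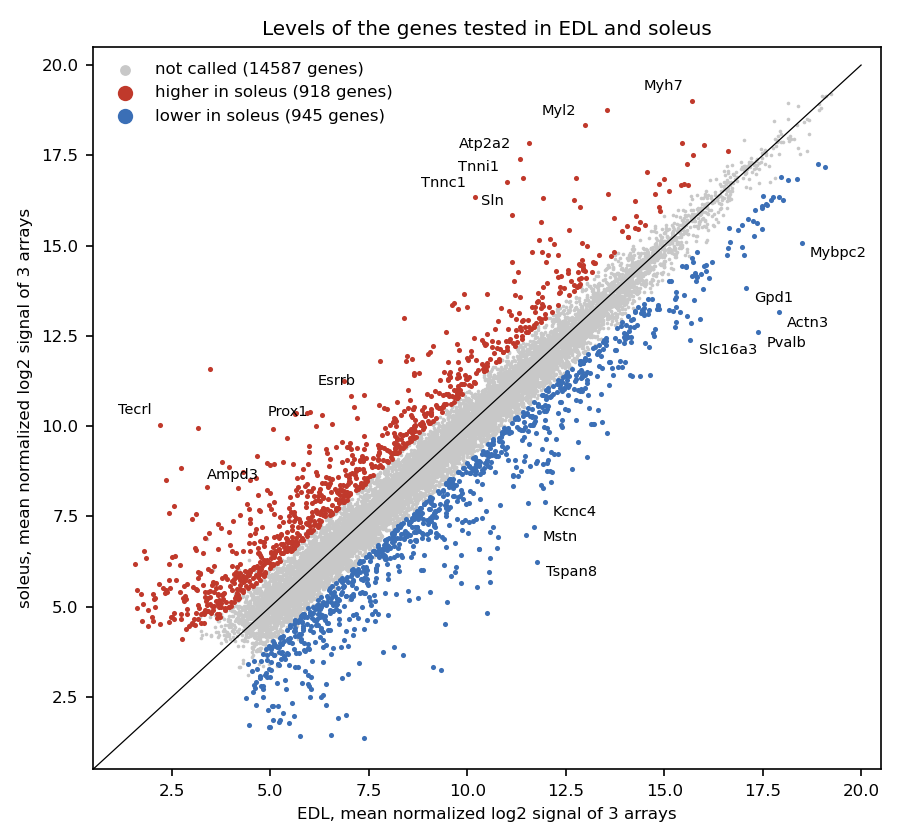
Each point is 1 of the 16450 genes, at its mean normalized log2 signal over the 3 EDL arrays (x axis) and the 3 soleus arrays (y axis), with equal levels on the diagonal. Red marks the 918 genes called higher and blue the 945 called lower in the soleus; Tnnc1, Tnni1 and Atp2a2 lie far above the diagonal, and Actn3, Pvalb and Mybpc2 far below it at high signals.

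The slow contractile genes were the group with the largest shift. Of 14 measured members of a list of 15, 11 were higher in the soleus and 0 lower, which is 78.6% against 5.58% of all genes, and their median difference was 3.95 against -0.05 over all genes. In whole muscle, more fibres of a type and more RNA per fibre cannot be told apart. The count was 11 with each slide left out in turn and 9 with normexp background correction, where Actn2 differed by 1.51 (limma adjusted p = 0.189) and Lmod2 by 2.70 (adjusted p = 0.0647).

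Slow and cardiac troponin C, the calcium sensor of the slow thin filament, is encoded by Tnnc1, whose probe lies at chr14:30039183-30039599 (mm8, plus strand). Its signal was 10.08, 10.12 and 10.35 on the EDL arrays and 16.24, 16.37 and 16.41 on the soleus arrays. The arrays of each muscle lay close together and far from those of the other, a difference of 6.15 (SE 0.0642, 71.2-fold, adjusted p = 9.16e-05). Slow troponin I, Tnni1, which holds the thin filament off until calcium binds, has its probe at chr1:137625162-137626037. Its signal was 10.98, 11.01 and 11.05 in EDL and 16.66, 16.75 and 16.89 in soleus, 53.9-fold higher in the soleus (adjusted p = 9.16e-05). Slow troponin T, Tnnt1, which ties the complex to tropomyosin, read 13.50, 13.52 and 13.63 in EDL and 18.87, 18.70 and 18.68 in soleus. Its difference of 5.20 (SE 0.0832) placed all soleus arrays among the brightest signals measured. All 3 slow troponin subunits were thus higher in the soleus on every slide.

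Slow tropomyosin, Tpm3, was 5.47 higher (SE 0.076), from 11.28 to 11.54 in EDL and from 16.72 to 17.05 in soleus. A further Tpm3 probe gave a smaller difference, 1.88. Myl2, the slow and ventricular regulatory light chain of myosin, read 12.95 to 13.01 in EDL and 18.23 to 18.43 in soleus, 40.6-fold higher. The beta myosin heavy chain Myh7, the motor of slow fibres, read 15.60, 15.57 and 15.94 in EDL against 19.04, 18.96 and 19.03 in soleus. Its 9.88-fold difference (adjusted p = 0.000175) was smaller than those of the troponins. Among sarcomere-associated proteins, the Z-disc protein Myoz2 was 4.12 higher, the stretch-linked ankyrin repeat protein Ankrd2 4.40, the muscle LIM protein Csrp3 3.77, the actin filament nucleator Lmod2 3.15 and the Z-disc crosslinker Actn2 1.85. For none of these 5 did the arrays of the muscles overlap.

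The slow list also had 3 members that did not pass. The light chain Myl3 differed by 0.68 on its brightest probe, from 17.68 to 17.90 in EDL and from 18.41 to 18.53 in soleus, whereas its other probe gave 6.14, from a mean of 8.34 in EDL to 14.5 in soleus. Averaging the probes called it, at 3.41. Mybpc1, slow myosin-binding protein C, differed by 0.09, and by -0.17 with spike-in scaling, and its arrays overlapped. Myl6b differed by -0.09 on its brightest probe and by 2.51 on the other, which read a mean of 2.44 in EDL.

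The fast contractile genes were lower in the soleus in 7 of 14 cases and higher in 0, 50% against 5.74% of all genes, with a median of -1.25. Alpha-actinin-3, Actn3, the crosslinker of the fast Z-disc, read 17.87, 17.77 and 18.08 in EDL and 12.93, 13.25 and 13.27 in soleus. It was 27.2-fold lower in the soleus (difference -4.76, SE 0.1, adjusted p = 0.000119). Fast myosin-binding protein C, Mybpc2, with its probe at chr7:44369762-44369821 (minus strand), read 18.52, 18.49 and 18.47 in EDL and 14.91, 15.12 and 15.19 in soleus, a difference of -3.42 (SE 0.0849). These were the members with the widest gaps between the muscles. The Z-disc protein Myoz1 differed by -2.03, the light chain kinase Mylk2 by -2.01, the fast regulatory light chain Mylpf by -1.65 and the M-band protein Myom2 by -1.52.

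Several abundant fast isoforms differed little. Fast troponin C, Tnnc2, read 19.29, 19.12 and 19.30 in EDL and 19.29, 19.14 and 19.14 in soleus, so that its arrays overlapped, and its difference turned from -0.05 to 0.007 without slide 3. Fast troponin I, Tnni2, differed by -0.17 (adjusted p = 0.149) and the fast light chain Myl1 by -0.18 (adjusted p = 0.18). A second Myl1 probe differed by -1.97, and the mean over the probes, -1.08, was called. Fast troponin T, Tnnt3, differed by -0.99 (adjusted p = 0.00116), just short of the size needed, and passed at -1.04 without slide 2 and also without slide 3. Tpm1 differed by -0.69, and by -1.05 and 0.06 on its other probes. The dim Z-disc gene Myoz3 differed by -0.82, with a call at -1.09 without slide 3. The 16 genes with a mean of at least 18 in both muscles gave 0 calls by limma, and 3 of them had an unadjusted p under 0.05. That count was nearly fixed in advance and shows nothing about bright genes. The brightest signal on the 6 arrays was 19.35, a call needs 1 log2 unit, and bright genes lower in soleus are left out. With normexp background correction only Actn3 and Mybpc2 of the 14 fast genes remained called. The other called members lost the adjusted p and not the difference: Myoz1 was at -2.39 (limma adjusted p = 0.0747), Mylk2 at -2.38, Mylpf at -2.13, Myom2 at -1.92 and Myh4 at -2.32.

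**Figure D2:**
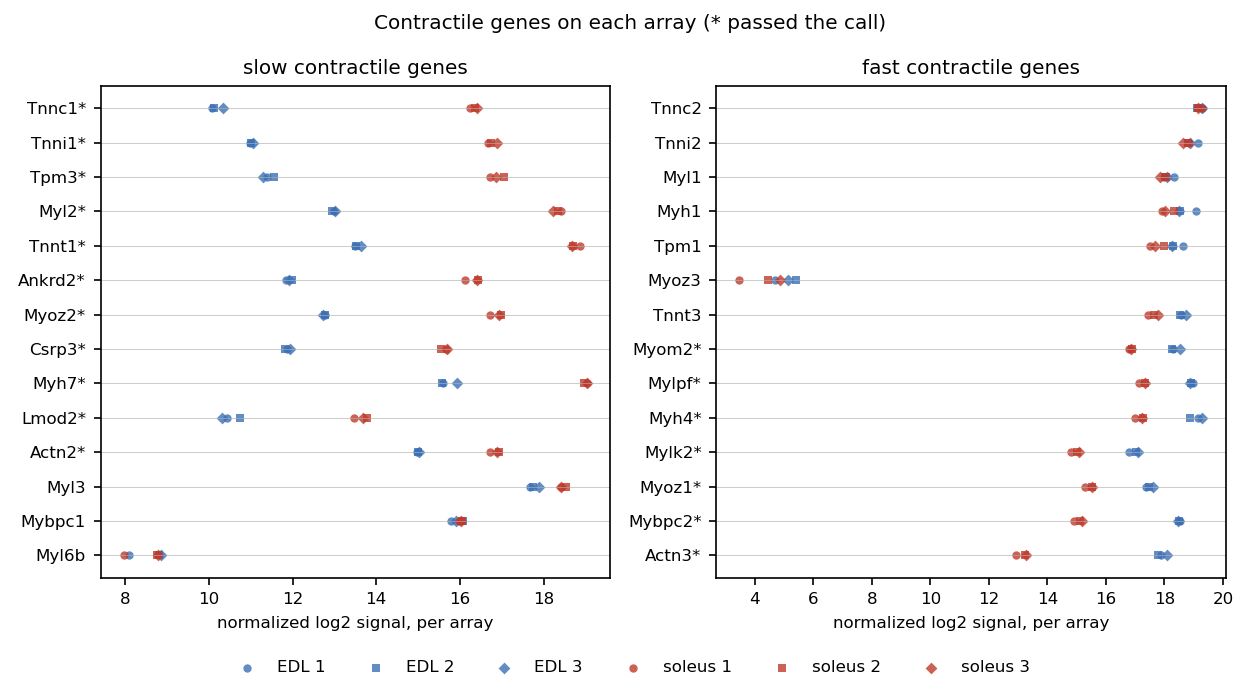
Normalized log2 signal (x axis) of each slow (left) and fast (right) contractile gene on every array, blue for EDL and red for soleus, with 1 marker shape per slide and a star for called genes. The arrays of the muscles stand 1.85 to 6.15 units apart for the 11 called slow genes, while Tnnc2, Tnni2 and Myl1 overlap near the top of the range.

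Myosin heavy chains set the speed of a fibre. The chain of the fastest fibres, Myh4, with its probe at chr11:67075497-67075556 (plus strand), read 19.13, 18.87 and 19.27 in EDL and 16.99, 17.27 and 17.23 in soleus, 3.80-fold lower in the soleus (adjusted p = 0.000855). Its other probe, with means of 18.4 in EDL and 17.2 in soleus, gave a smaller difference of -1.16. Myh1, of intermediate fast fibres, read 19.07, 18.52 and 18.48 in EDL and 17.93, 18.32 and 18.01 in soleus (difference -0.60, SE 0.197, adjusted p = 0.0608). Its less bright probes differed by -2.21 and 0.11. Myh2, of fast oxidative fibres, read 18.51, 18.24 and 18.42 in EDL and 19.05, 18.85 and 18.66 in soleus (0.46, SE 0.0923), and its other probes gave 1.19 and 1.25. These levels lie close to the brightest signal on the 6 arrays, 19.35.

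The alpha chain Myh6, known from the atrium of the heart, read 11.41, 11.32 and 11.93 in EDL and 17.73, 17.89 and 17.88 in soleus, 77.6-fold higher, and its other probe gave 5.94. Myh6 lies next to Myh7 in the genome and their sequences are nearly identical, and whether these probes also bind Myh7 was not tested. The perinatal chain Myh8 read 18.61 to 19.14 on all 6 arrays and the embryonic chain Myh3 differed by -0.98 on its brightest probe and 0.75 on the other. The same limit holds for both, since muscle myosin heavy chains share long stretches of sequence.

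Promoters of the slow and fast genes that differed most are shown because these members moved together. Each is the 250 bases before the gene's start, 5′ to 3′, from the RefSeq windows of GRCm38.p6, for the 2 slow and the 2 fast called contractile genes with the widest difference among those with a window. Capitals mark matches to the E-box CANNTG, bound by myogenic factors, to the MCAT motif CATTCC, bound by TEAD factors, on either strand, and to the CArG consensus, bound by serum response factor. Tnnc1 is at chr14:31208062-31208311 (plus strand), Tnni1 at chr1:135799171-135799420 (plus strand, the first of its 2 windows), Mybpc2 at chr7:44524670-44524919 (minus strand) and Myh4 at chr11:67237562-67237811 (plus strand).
Tnnc1: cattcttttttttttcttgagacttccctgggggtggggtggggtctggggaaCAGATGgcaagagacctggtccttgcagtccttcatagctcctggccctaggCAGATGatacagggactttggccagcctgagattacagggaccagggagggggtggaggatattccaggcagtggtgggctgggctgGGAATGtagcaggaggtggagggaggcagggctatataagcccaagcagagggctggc
Tnni1: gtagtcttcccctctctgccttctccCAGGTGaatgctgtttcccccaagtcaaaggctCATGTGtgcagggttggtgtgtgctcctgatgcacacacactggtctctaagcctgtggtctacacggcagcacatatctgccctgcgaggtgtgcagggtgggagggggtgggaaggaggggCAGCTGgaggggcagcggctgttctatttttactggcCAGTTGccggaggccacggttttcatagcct
Mybpc2: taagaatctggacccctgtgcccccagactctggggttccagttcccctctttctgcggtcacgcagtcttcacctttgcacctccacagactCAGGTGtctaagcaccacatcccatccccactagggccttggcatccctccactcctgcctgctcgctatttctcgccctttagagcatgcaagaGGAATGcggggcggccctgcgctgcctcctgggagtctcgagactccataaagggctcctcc
Myh4: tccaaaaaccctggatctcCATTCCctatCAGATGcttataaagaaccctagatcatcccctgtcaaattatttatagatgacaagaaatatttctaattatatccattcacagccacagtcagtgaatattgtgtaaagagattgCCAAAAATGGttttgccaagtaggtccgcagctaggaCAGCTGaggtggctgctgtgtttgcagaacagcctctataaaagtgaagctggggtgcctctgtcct

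The Tnnc1 promoter held 2 E-boxes and 1 MCAT match, Tnni1 4 E-boxes, Mybpc2 1 E-box and 1 MCAT match, and Myh4 2 E-boxes, 1 MCAT and 1 CArG match. Of the 15 slow contractile and calcium genes called higher, 13 had windows, 18 in all, and each of the 18 held an E-box. Of the 13 fast contractile and calcium genes called lower, 7 had windows, and 8 of their 9 windows (88.9%) held one. The share was 66.2% over all 32851 windows and 59.1% over those of the genes tested. Over all called genes it was 64.8% for those higher and 64.1% for those lower in the soleus, so that direction did not separate them. The NFAT core GGAAAA was in 0 of the 18 slow and 0 of the 9 fast windows, against 20.4% of all windows, and the MCAT motif in 2 of 18 and 2 of 9, against 12.6%. Windows of 1 gene can overlap, and a match describes these letters only.

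Calcium handling differed along the same line. Of 6 slow or cardiac members 4 (66.7%) were higher in the soleus, against 5.58% of all genes, and 0 lower (median 2.64). The slow SERCA pump Atp2a2, which returns calcium to the sarcoplasmic reticulum, read 11.36, 11.41 and 11.24 in EDL and 17.23, 17.62 and 17.35 in soleus, 67.1-fold higher (difference 6.07, SE 0.087). All 3 Atp2a2 probes were at least 4.61 higher. Its inhibitor sarcolipin, Sln, read 11.08 to 11.16 in EDL and 15.80 to 15.91 in soleus, 26.3-fold higher. Phospholamban, Pln, another SERCA inhibitor, was 3.46-fold higher and the calcium store protein Casq2 11.2-fold higher. Hrc and Srl, luminal proteins of the reticulum, differed by -0.24 and -0.46 and did not pass.

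Among 14 calcium genes of fast fibres, 6 (42.9%) were lower in the soleus, against 5.74% of all genes, and 0 higher (median -0.94). Parvalbumin, Pvalb, the cytosolic calcium buffer that speeds relaxation, read 17.33, 17.38 and 17.44 in EDL and 12.46, 12.68 and 12.66 in soleus. It was 27.6-fold lower (difference -4.78, SE 0.0629, adjusted p = 9.16e-05). The fast SERCA pump Atp2a1 read 17.91, 18.07 and 18.07 in EDL and 15.92, 16.50 and 16.38 in soleus, 3.36-fold lower. The store protein Casq1 was 4.53-fold lower, the junctophilins Jph1 and Jph2, which hold the reticulum to the surface tubules, 2.92-fold and 2.87-fold lower, and the calcium channel subunit Cacng1 2.67-fold lower. The release channel Ryr1 differed by -0.41, the voltage sensor Cacna1s by -0.66, triadin, Trdn, by -0.60 and Stac3 by -0.41, each short of the size needed, while Cacnb1 and Sypl2 reached -0.91 and -0.97. Sypl2 passed at -1.04 without slide 3, but its other probe gave 0.31. Ryr3 differed by -0.37 and Jsrp1 by -0.08. With normexp background correction only the call of Pvalb remained of these 6, while the differences of the others were larger than without it: Atp2a1 was at -2.08 (limma adjusted p = 0.116), Casq1 at -2.51, Jph1 at -1.93, Jph2 at -1.82 and Cacng1 at -1.63.

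Genes of glycolysis and glycogen breakdown were lower in the soleus. Of 29 measured, 17 were lower and 0 higher, 58.6% against 5.74% of all genes, with a median of -1.31. Glycerol-3-phosphate dehydrogenase, Gpd1, which passes glycolytic electrons to the mitochondria, read 16.99, 17.08 and 17.12 in EDL and 13.74, 13.80 and 13.95 in soleus, 9.41-fold lower (adjusted p = 0.000106). Pfkfb3, which makes the activator of phosphofructokinase, was 8.76-fold lower. The catalytic subunit of phosphorylase kinase, Phkg1, read 13.60, 13.66 and 13.41 in EDL and 10.34, 8.72 and 10.39 in soleus, a difference of -3.74 whose SE, 0.416, was several times that of its neighbours. The soleus array of slide 2 was the low one.

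Other members, named after their values were seen, ran along the pathway. Phka1 and Phkb, further subunits of phosphorylase kinase, differed by -2.61 and -2.18, glycogen phosphorylase, Pygm, by -1.77 and phosphoglucomutase Pgm1 by -2.00. Phosphofructokinase, Pfkm, differed by -1.09, triosephosphate isomerase, Tpi1, by -1.41, Gapdh by -1.44, Pgk1 by -1.43, Pkm by -1.60 and lactate dehydrogenase A, Ldha, by -1.31. Aldoa was the abundant exception, with 19.25, 18.93 and 19.17 in EDL and 19.30, 19.04 and 19.08 in soleus. Both hexokinases were near equal, Hk1 at 0.33 and Hk2 at 0.09. Genes of glycogen synthesis did not pass: the branching enzyme Gbe1 differed by 0.99, glycogenin, Gyg, by 0.45 and glycogen synthase, Gys1, by 0.06. Of these 29 genes 1 was called higher without slide 3. With normexp background correction 4 of the 17 calls remained.

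Lactate and pyruvate genes split by isoform, with 4 of 19 (21.1%) higher and 3 (15.8%) lower, against 5.58% and 5.74% of all genes. The lactate exporter Slc16a3 read 15.54, 15.74 and 15.72 in EDL and 12.25, 12.46 and 12.48 in soleus, 9.63-fold lower, and Bsg, the chaperone of these transporters, was 2.52-fold lower. The importer Slc16a1 was 2.44-fold higher. Lactate dehydrogenase B, Ldhb, the heart form, read 15.40 to 15.49 in EDL and 17.78 to 17.89 in soleus, 5.26-fold higher. Pyruvate dehydrogenase kinase Pdk4, which turns pyruvate away from oxidation, was 4.49-fold higher. The insulin-responsive glucose transporter Slc2a4 differed by -0.30, and the neuronal form Slc2a3 was 3.71-fold lower. With normexp background correction Slc2a3 differed by only -0.399 (limma adjusted p = 0.619).

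Fatty acid uptake and oxidation genes were higher in the soleus in 12 of 31 cases and lower in 0, 38.7% against 5.58% of all genes, with a median of 0.77. Acot2, a mitochondrial acyl-CoA thioesterase, read 7.47, 6.90 and 6.88 in EDL and 9.75, 8.89 and 8.94 in soleus, 4.32-fold higher. The slide 1 values were the higher in both muscles, and Acot2 has close paralogs whose RNA its probe may also bind. Fabp3, the fatty acid carrier of heart and muscle, was 3.37-fold higher, and lipoprotein lipase, Lpl, which frees fatty acids in capillaries, 3.19-fold higher. Named after their values were seen, the fatty acid transporter Cd36 was 2.82-fold higher, the lipid droplet protein Plin5 3.18-fold and medium-chain acyl-CoA dehydrogenase, Acadm, 2.32-fold. In all 28 of the 31 members were positive, against 7468 of all 16450 genes tested. Among the 28 was Cpt1b, the gate of mitochondrial entry, at 0.77, short of a call. Slc27a4 differed by -0.27.

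Fat cell markers were also higher in the soleus, 5 of 7 measured (71.4% against 5.58% of all genes). Their part in the fatty acid result was not tested. Their summed signal lay between 55113 and 57387 on the EDL arrays and between 85816 and 93648 on the soleus arrays. Most of that sum was Fabp4, with means of 15.71 in EDL and 16.29 in soleus, which was not called, at 0.57. The adipokine gene Adipoq was 2.69-fold higher and the complement factor Cfd 2.92-fold, while leptin, Lep, and Ucp1 were not well above background in either muscle. Cidea, a lipid droplet protein of brown fat, read 8.53 to 8.67 in EDL and 11.84 to 11.92 in soleus, 9.69-fold higher. With spike-in scaling 6 fatty acid genes were called higher and 1 lower, and with normexp background correction 0 were called higher.

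The citric acid cycle and the respiratory chain, the common end of these fuels, differed little. Among 20 cycle genes 1 was called, higher in the soleus, which is 5% against 5.58% of all genes. Their median was -0.05. That gene, Idh2, the mitochondrial isocitrate dehydrogenase that makes NADPH, read 12.02, 11.57 and 11.90 in EDL and 15.32, 15.02 and 15.13 in soleus, 10.0-fold higher (adjusted p = 0.000118). Citrate synthase, Cs, read 17.16, 17.25 and 17.39 in EDL and 17.05, 17.12 and 17.21 in soleus (adjusted p = 0.0908). Of 45 nuclear genes of oxidative phosphorylation 1 (2.22%) was called, with a median of -0.02 and a range from -0.26 to 1.03. It was Cox8a, the liver form of a cytochrome oxidase subunit, 2.04-fold higher, whereas its muscle form Cox8b differed by 0.14. With spike-in scaling Cox8a fell short, at 0.765. These levels are relative to the 75th percentile of each array.

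**Figure D3:**
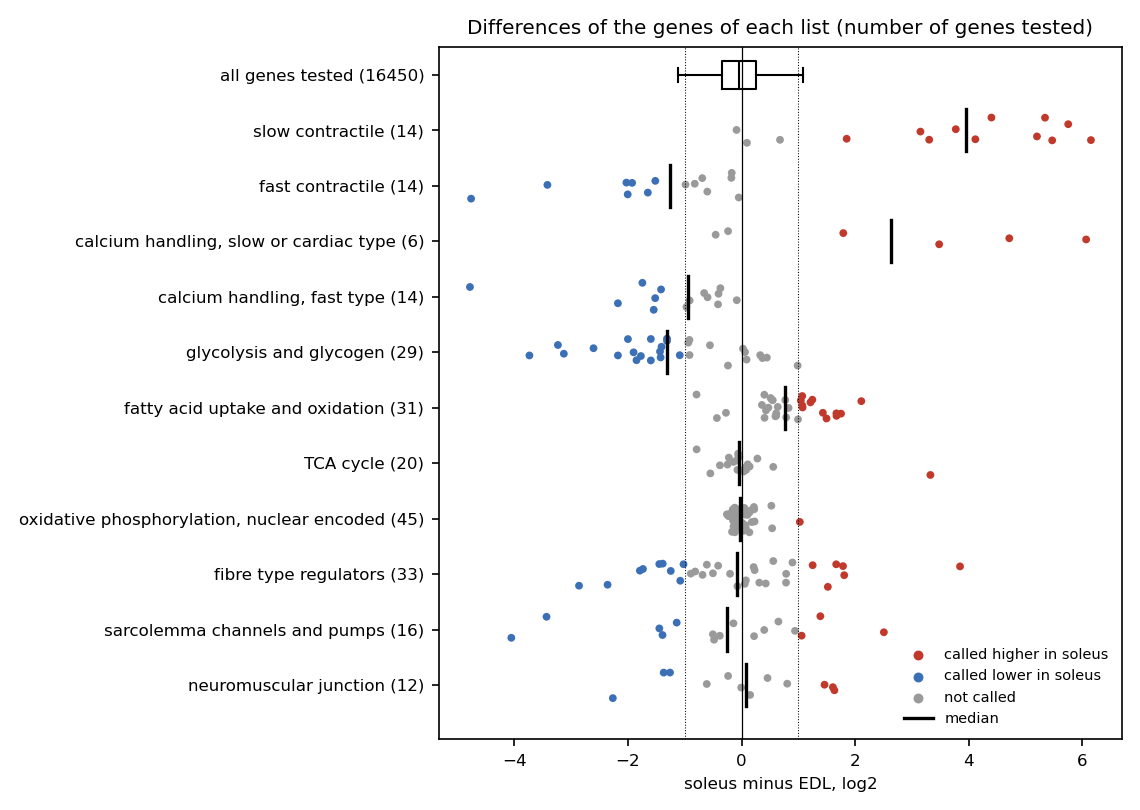
Differences (x axis, soleus minus EDL, log2) of the genes of 11 lists, with all 16450 genes as a box (quartiles, whiskers at the 5th and 95th percentiles) at the top. Bars are list medians, red and blue points called genes, and dotted lines the size a call needs; slow contractile genes centre at 3.95, glycolysis at -1.31 and oxidative phosphorylation at -0.02.

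**Figure D4:**
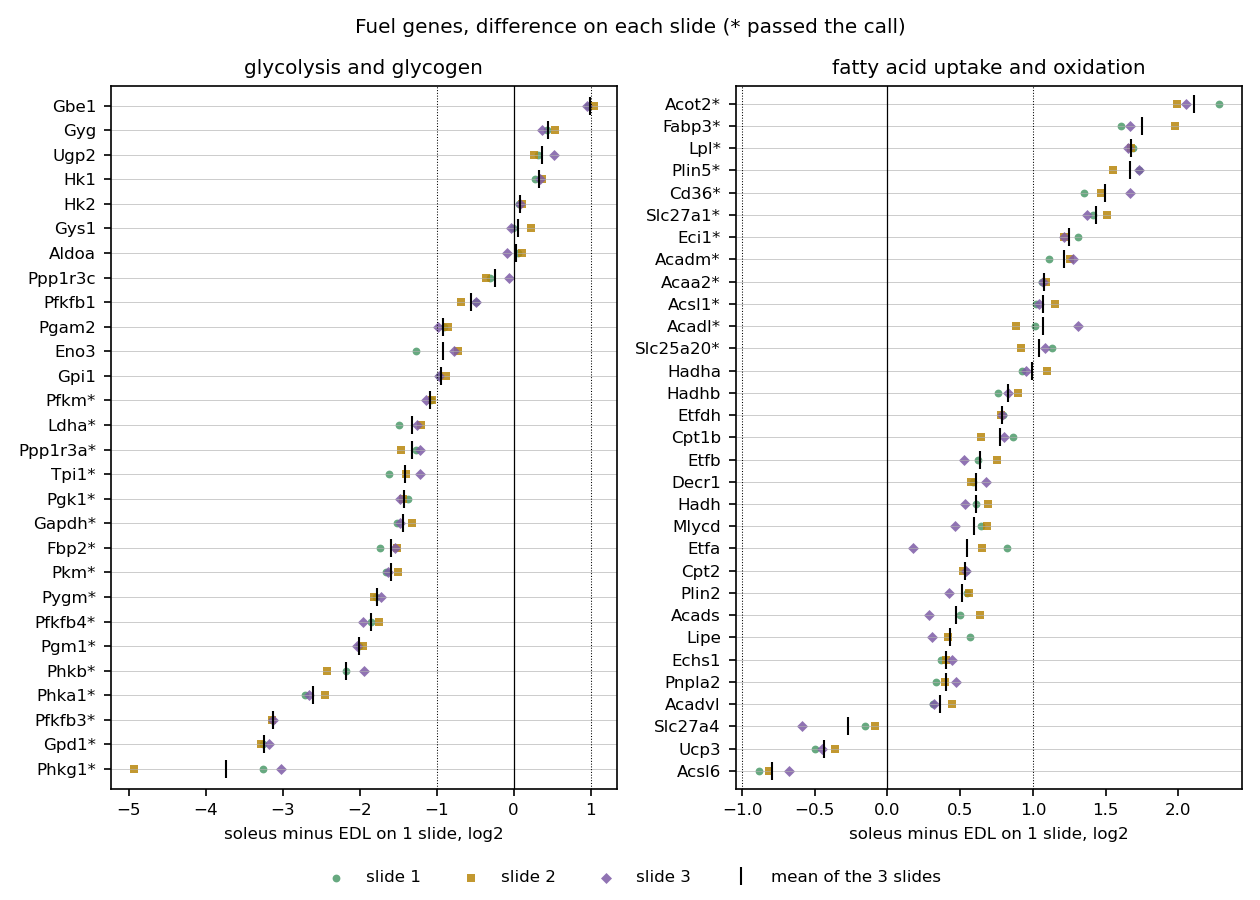
Difference on each of the 3 slides (markers) and their mean (bar) for each gene of glycolysis and glycogen (left) and of fatty acid use (right), in log2 units, with a star for called genes. Not every member is drawn. The slides lie close together for most genes, and Phkg1 on slide 2 stands lowest.

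Regulators of oxidative genes and of fibre type were mixed. Of 15 measured PGC-1, ERR and PPAR genes 3 (20%) were higher and 0 lower, against 5.58% and 5.74% of all genes. The estrogen-related receptor Esrrb read 7.35, 7.49 and 7.25 in EDL and 10.93, 10.87 and 10.78 in soleus, 11.3-fold higher (adjusted p = 0.000112). Esrrg was 3.74-fold higher on its brightest probe, while its other probe gave -0.63 and their mean did not pass. Ppara, the fatty acid receptor, was 2.27-fold higher but fell short at 0.92 with spike-in scaling. The coactivator Ppargc1a read 11.49, 12.17 and 12.41 in EDL and 12.03, 12.45 and 12.35 in soleus, overlapping (adjusted p = 0.168).

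Of 33 fibre type regulators 6 (18.2%) were higher and 9 (27.3%) lower in the soleus, against 5.58% and 5.74% of all genes. Prox1, a homeobox factor known to favour slow genes, has its probe at chr1:191819555-191819614 (mm8, minus strand). It read 6.16 ± 0.143 in EDL and 10.00 ± 0.13 in soleus (mean ± SD, n = 3 each), 14.4-fold higher (adjusted p = 0.000137). Myogenin, Myog, was 3.45-fold higher and MyoD, Myod1, which was named after its values were seen, 3.33-fold lower, both without overlap. The calcineurin-responsive factor Nfatc2 was 3.50-fold higher. On its other probes it differed by -0.01 and 1.42. Sox6, a repressor of slow genes, read 12.69 to 12.98 in EDL and 10.92 to 11.16 in soleus, 3.46-fold lower, and all 4 of its probes were negative. Eya4, a transcriptional coactivator, was 5.13-fold lower.

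Large Maf factors are known to drive the fastest myosin. Maf, named after its values were seen, was 2.73-fold lower in the soleus. Mafa read a mean of 6.34 in EDL and 3.48 in soleus, where 1 of the 3 arrays was well above background, so that the size of its difference is uncertain. With normexp background correction it differed by -0.079 (limma adjusted p = 0.931). Named in the same way, the calcineurin target Rcan1 was 3.17-fold higher, the TEAD cofactor Vgll2 2.87-fold higher and the glycolytic fibre factor Tbx15 2.37-fold lower.

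**Figure D5:**
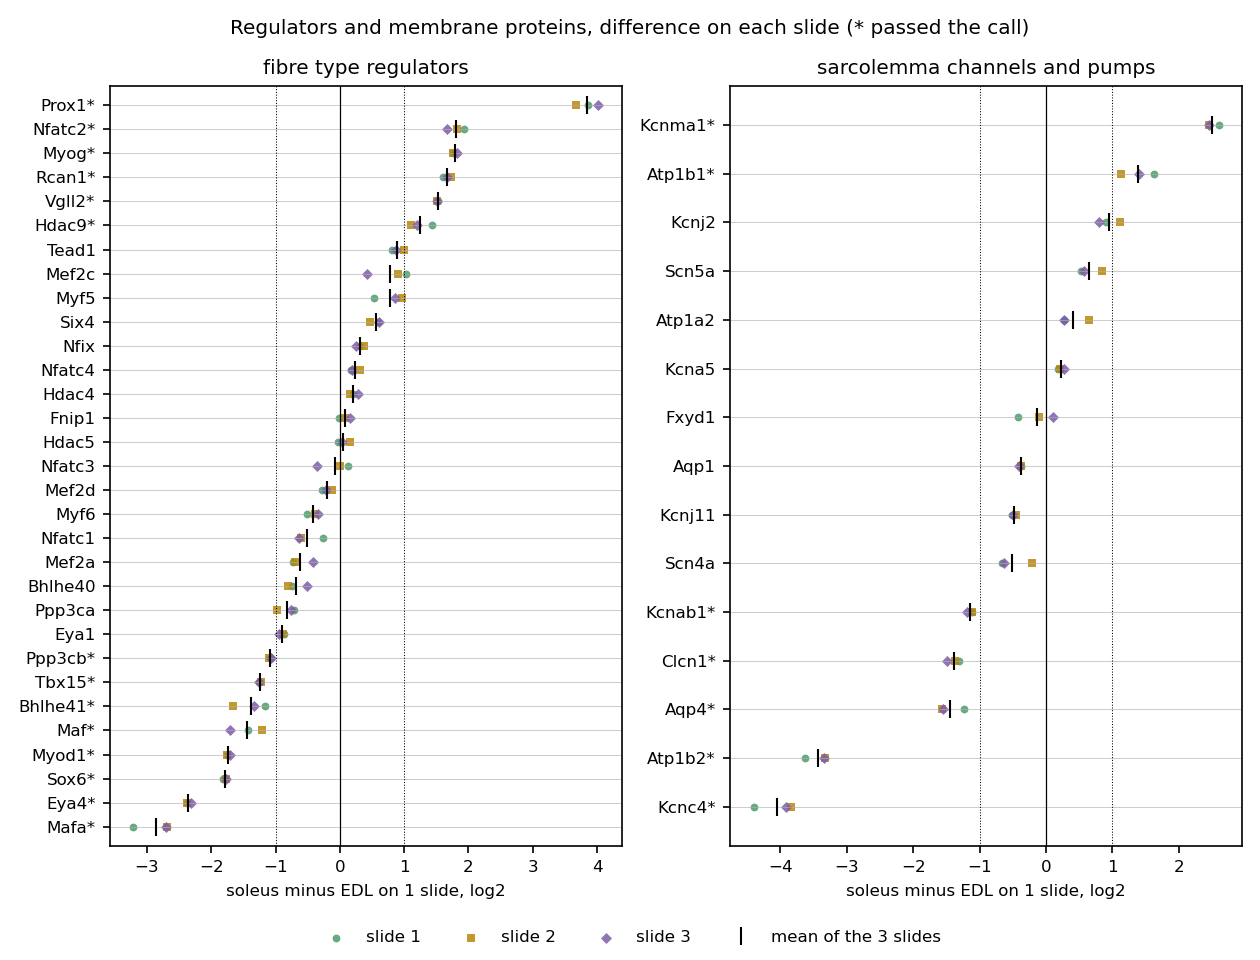
Difference on each of the 3 slides (markers) and their mean (bar) for fibre type regulators (left) and sarcolemma channels and pumps (right), in log2 units, with a star for called genes. Not every member is drawn. Prox1 stands apart at 3.85, and Mafa, Kcnc4 and Atp1b2 lie lowest.

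The surface membrane carries the action potential and restores its ions. Of 16 channel and pump genes 3 (18.75%) were higher and 5 (31.25%) lower in the soleus, against 5.58% and 5.74% of all genes. The voltage-gated potassium channel Kcnc4 read 12.07, 11.91 and 11.92 in EDL and 7.66, 8.07 and 7.99 in soleus, 16.6-fold lower. The beta subunits of the sodium pump differed in opposite directions: Atp1b2 was 10.8-fold lower and Atp1b1 2.62-fold higher. The calcium-activated potassium channel Kcnma1 was 5.68-fold higher and the water channel Aqp4 2.73-fold lower, and the muscle sodium channel Scn4a differed by -0.51.

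At the nerve-muscle junction 3 of 12 genes (25%) were higher and 3 (25%) lower, against 5.58% and 5.74% of all genes. Acetylcholinesterase, Ache, which clears the transmitter, read 9.11, 9.38 and 9.27 in EDL and 6.72, 7.10 and 7.13 in soleus, 4.81-fold lower. The adult receptor subunit Chrne was 2.59-fold lower and Chrnb1 2.40-fold lower. The fetal receptor subunit Chrng was 3.11-fold higher on its brightest probe, although its other probe gave -0.14 and their mean did not pass. Chrna1 was 2.75-fold higher and the receptor kinase Musk 3.05-fold higher, and Chrnd differed by 0.15. Musk was well above background on 2 of the 3 EDL arrays, so that the size of its difference is uncertain. With normexp background correction Musk differed by 1.11 (limma adjusted p = 0.415). Schwann cell markers were higher too, 3 of 9 (33.3% against 5.58% of all genes). Their summed signal was 12542 to 13390 in EDL and 25045 to 27199 in soleus. Most of that sum was Pmp22, with means of 13.02 in EDL and 14.09 in soleus. The 9 differences ran from 0.09 to 1.33. The part of these markers in the junction results was not tested. Mbp, a myelin protein, was 2.52-fold higher. With spike-in scaling the called markers Pmp22 and Mal fell short, at 0.81 and 0.82.

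Of 19 genes of growth and atrophy signalling 2 were higher and 3 lower. Myostatin, Mstn, the secreted brake on muscle growth, has its probe at chr1:53012183-53012242 (mm8, plus strand). It read 11.54, 11.82 and 11.70 in EDL and 7.16, 7.07 and 7.39 in soleus, 22.4-fold lower (difference -4.48, SE 0.107, adjusted p = 0.00015). Its antagonist follistatin, Fst, was 2.30-fold higher and Fgf1 4.25-fold higher. With spike-in scaling Fst fell short, at 0.94. The polyamine enzymes Smox and Amd1 were 9.06-fold and 4.00-fold lower.

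Oxygen, energy and chaperone proteins gave 5 of 15 (33.3%) higher and 2 (13.3%) lower, against 5.58% and 5.74% of all genes. Carbonic anhydrase 3, Car3, an abundant cytosolic enzyme of slow muscle, read 14.47, 14.63 and 14.58 in EDL and 16.98, 17.00 and 17.12 in soleus, 5.56-fold higher. The small heat shock proteins Hspb7 and Hspb1 were 9.06-fold and 2.66-fold higher. Muscle creatine kinase, Ckm, which buffers ATP, was 2.22-fold lower. It fell short at -0.97 with quantile normalization and at -0.835 with the authors' deposited values. Its brain form Ckb was 2.69-fold lower on its brightest probe, but the other gave 0.58 and their mean was not called. Myoglobin, Mb, the oxygen store, read 18.15 ± 0.154 in EDL and 18.95 ± 0.0949 in soleus (mean ± SD), a difference of 0.80 that stayed short of the call.

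The study's stated subject is the supply of DNA building blocks, dNTPs, to mitochondria. Of 13 core dNTP genes measured, 1 was higher and 1 lower in the soleus, with a median of -0.19. That is 7.69% in each direction, near the 5.58% and 5.74% of all genes. Thymidine kinase Tk1, the cytosolic salvage enzyme, read 9.53, 9.78 and 9.62 in EDL and 7.79, 8.16 and 8.21 in soleus, 3.01-fold lower (adjusted p = 0.000552). Rrm2, the ribonucleotide reductase subunit of dividing cells, read 6.30, 6.32 and 6.05 in EDL and 7.15, 7.33 and 7.33 in soleus, 2.06-fold higher. It fell short at 0.93 without slide 3 and at 0.78 with spike-in scaling. Its catalytic partner Rrm1 differed by -0.95, passing at -1.21 with spike-in scaling, and the p53-inducible subunit Rrm2b differed by -0.38. The mitochondrial salvage kinases Tk2 and Dguok differed by -0.10 and -0.11, and their arrays overlapped. Tyms differed by 0.32, Dck by -0.02, Dut by -0.58, Samhd1 by -0.32, Nt5m by -0.19, Nt5c by -0.36 and Tymp by 0.06.

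Of 14 genes for mitochondrial DNA replication and nucleotide transport, 1 was called lower, 7.14% against 5.74% of all genes. It was the nuclease Mgme1, 2.03-fold lower, with a difference of -0.98 without slide 2. The polymerase Polg differed by 0.10. In the purine nucleotide cycle, which recycles AMP during exercise, the deaminases differed in opposite directions: Ampd1 read 15.80 ± 0.165 in EDL and 14.17 ± 0.174 in soleus (mean ± SD), 3.10-fold lower, while Ampd3 read 5.13, 4.67 and 4.93 in EDL and 8.45, 7.99 and 8.29 in soleus, 10.0-fold higher. The nucleotide kinases Nme4 and Ak4 were 2.13-fold higher and 3.19-fold lower, and Adssl1 differed by -0.44. With normexp background correction Ak4 differed by only -0.295 (limma adjusted p = 0.698). Nme4 fell short at 0.83 with spike-in scaling and at 0.93 with the mean over probes.

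Of 19 genes of body and limb position 5 (26.3%) were higher in the soleus and 1 (5.26%) lower, against 5.58% and 5.74% of all genes. The limb patterning gene Hoxa11 was 3.02-fold lower and Tbx4 2.66-fold higher. Tbx18 read a mean of 4.08 in EDL, where 1 of the 3 arrays was well above background, and 5.75 in soleus, and its difference with normexp background correction was 1.14 (limma adjusted p = 0.433). En1 was well above background on all 3 soleus arrays and on no EDL array, so that it passed the filter through the soleus alone. Its limma adjusted p, 0.000876, belongs to a fitted difference that rests on EDL signals not well above background. With normexp it differed by 1.17 and was not called. As a bound, En1 was at least 1.72-fold higher in the soleus. Here and below, such a bound sets the bright muscle's mean against, on each array of the dim muscle, the higher of the probe's own signal and the lowest signal well above background. Of 17 immediate early and stress genes 4 (23.5%) were higher and 1 (5.88%) lower: Btg2 was 4.76-fold, Hspa1a 4.71-fold and Atf3 3.99-fold higher, and Nr4a1 read 15.94 ± 0.0272 in EDL and 14.21 ± 0.183 in soleus (mean ± SD), 3.33-fold lower. Hspa1a has a near-identical neighbour, Hspa1b, whose RNA its probes may also bind. Of 15 circadian clock genes 0 were called by limma. At smaller sizes 9 of the 15 had an adjusted p (limma) under 0.05, beside 54.3% of all genes, and 11 an unadjusted one.

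Some of the 12 highest and 12 lowest called genes above background on every array belong to none of the lists. The tetraspanin Tspan8 read 11.77 ± 0.141 in EDL and 6.25 ± 0.229 in soleus (mean ± SD), 46.1-fold lower. The Wnt antagonist Dkk3 was 30.0-fold lower, the neuronal adhesion protein Cntnap2 30.1-fold, the cadherin Cdh4 26.3-fold, the ganglioside-induced mitochondrial protein Gdap1 24.6-fold, the signal Wnt4 20.3-fold, the calcium channel subunit Cacna2d4 19.0-fold and Lrp2bp 18.3-fold. In the other direction the phosphatase Dusp18 was 26.0-fold higher, the LIM protein Fhl2 24.0-fold and Lgi1 21.6-fold.

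Of the called genes, 56 were well above background on no EDL array and 50 on no soleus array. Such genes passed the filter through the other muscle alone, and the bounds below were not tested. Tecrl, a gene of the heart's sarcoplasmic reticulum, had a mean of 2.19 in EDL and 10.0 in soleus, at least 74.1-fold higher in the soleus. The organic cation transporter Slc22a2 was at least 25.9-fold higher, Gm8579 at least 32.5-fold, Speer4f1 at least 15.7-fold and A730036I17Rik at least 13.4-fold. In the EDL, Hils1 was at least 11.1-fold higher than in the soleus, the homeobox gene Irx5 had the next highest bound, and Phex was at least 8.47-fold higher, its own dim signal being the one used on each soleus array, Tafa4 at least 8.12-fold and the cartilage collagen gene Col9a1 at least 6.98-fold. These bounds depend on the background setting: with normexp the differences were -0.468 for Hils1, -0.342 for Irx5, -0.333 for Phex, -0.335 for Tafa4 and -0.095 for Col9a1, all uncalled by limma. Of the genes higher in the soleus, Tecrl (3.39), Slc22a2 (2.54) and Gm8579 (2.82) stayed called with normexp and Speer4f1 (2.11) and A730036I17Rik (2.01) did not.

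Markers of other cells were counted in the same way, against 5.58% of all genes called higher and 5.74% called lower. Of 12 endothelial, 12 macrophage, 9 smooth muscle and pericyte, 5 lymphocyte, 4 mast cell and 1 neutrophil markers measured, 0 were called by limma. At an unadjusted p under 0.05, with smaller differences, 9, 7, 5, 4, 4 and 1 of them passed in that order. At an adjusted p (limma) under 0.05 alone 7, 7, 5, 4, 4 and 1 passed, beside 54.3% of all genes. All 4 measured erythroid markers were lower in the soleus, by 2.01-fold to 2.30-fold, with a summed signal of 61346 to 73289 in EDL and 27571 to 35637 in soleus. The count was 3 with each slide left out. Hba-a1 fell short at -0.995 without slide 1, and with the authors' deposited values it differed by -0.915 and Hbb-bt by -0.976. Hbb-bt had an adjusted p (limma) of 0.111 and 0.272 in the fits on all 12 arrays, and Slc4a1 one of 0.0799 without the slide as a block. Satellite cell markers were higher in 3 of 9 cases (Chrdl2, Calcr and Sdc4), whereas Pax7 overlapped, and Postn was the 1 of 13 fibroblast and matrix genes called. The tendon factor Scx was 2.19-fold and Prg4 2.34-fold higher. Spike-in scaling took Scx, Prg4 and Sdc4 below the size needed.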

How the data were processed

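The members and lists were chosen with earlier results of these data known. Total RNA of 3 EDL and 3 soleus samples was labelled with Cy3 and hybridised to 1-colour arrays, per the labels. The authors deposited spot intensity values from Agilent Feature Extraction 10.5.1.1, per the file headers, whose processed signal is already background-subtracted; the other deposited columns used are spot flags. Here log2 processed signals of 41174 probes were scaled by the 75th percentile of each array, with a shared constant of 9.11 added back. Outlier spots were left out, and 24368 probes well above background on all 3 arrays of either muscle were kept. The probe with the highest mean stood for its gene (16450 genes).

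limma 3.58.1 (R 4.3.3, the data.table package, version 1.17.8) was fitted with the slide as a block, tested two-sided and first tested on simulated data. Same-slide deviations of the muscles correlated at 0.677, 0.566 and 0.540, so the replicate numbers, which are the slides, pair the arrays. Nothing says that pairs share a mouse, and p-values measure the spread between these samples. Named genes are the 12 highest and 12 lowest called genes above background on all arrays, all contractile, myosin, calcium and core dNTP members, of each other list up to 3 called genes per direction and the first not called, and the 5 with the largest bounds per direction; others are said to be named after their values were seen. Probe names came from the files and RefSeq annotation: 24375 probes matched by accession, 6301 by symbol, 2426 by synonym and 13 by another accession, and 8059 kept the file's name. Alternatives were no block, all 12 arrays, quantile, spike-in and normexp settings, other filters, the mean over probes, each slide left out and the authors' deposited values. Probe positions (mm8) are from the files. Promoter windows are RefSeq's (GRCm38.p6). Python 3.11.15, pandas 2.3.3 and matplotlib 3.10.9 made the promoter counts and figures. Some genes are counted in their lists but not reported here.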

Additional observations from a re-analysis of the deposited data

How the results depend on the processing

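Against 918 genes higher and 945 lower in the soleus, the fit without the replicate block called 890 and 863, of which 889 and 862 were the same genes, and of the named genes it lost 2 calls, that of Slc4a1 among them. All 12 arrays gave 919 and 940 with the block and 890 and 870 without it, quantile normalization 960 and 910, the mean over probes 900 and 919, and the authors' values 1010 and 973. Leaving out each slide gave 890 to 915 higher and 920 to 1012 lower. Normexp background correction gave 61 and 65, all among the genes called before. Of 186 named genes 82 kept both their sign and their call or lack of one. A further 90 kept the sign and lost the call, and 14 turned sign. Spike-in scaling gave 653 and 1611, and of the named genes 11 lost the call, 6 gained it and 6 turned sign. An adjusted p alone (limma) gave 3945 and 4980. The cause was not tested.

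With normexp 2 fast contractile and 4 glycolysis genes were lower and 0 fatty acid genes higher. Spike-in scaling gave 6 fatty acid genes higher and 1 lower, and the mean over probes 1 lower. Of glycolysis genes 1 was higher with quantile normalization, and 0 to 1 with a slide left out. With a slide left out, 11 slow contractile genes were higher, 7 to 9 fast contractile and 17 to 18 glycolysis genes lower.

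The genes that turned sign were not called, except Slc4a1 (0.24 with normexp). With normexp these were Adgre1 0.349, Dck 0.455, Fosb 0.624, Mybpc1 -0.276, Myh2 -0.006, Myl6b 0.193, Myoz3 0.609, Polg -0.061, Ppargc1a -0.134, Ryr3 0.557, S100a9 0.322, Slc27a4 0.102 and Tk2 0.313. With spike-in scaling they were Chrnd -0.11, Hoxa5 -0.031, Mybpc1 -0.166, Polg -0.158, Ppargc1a -0.008 and Tymp -0.203. The mean over probes turned Dck (0.002) and Myl6b (1.209, called), and quantile normalization Cs (0.042). Leaving out a slide gave -0.142 to 0.028 for Adgre1, -0.085 to 0.036 for Dck, -0.573 to 0.094 for Fosb, -0.081 to 0.007 for Tnnc2 and -0.002 to 0.112 for Tymp. Signal over background limits dim genes: bounds are given where no array of a muscle was well above background, and sizes are uncertain where only some were.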

Other observations

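Further called genes outside the lists were chosen after their values were seen, so that their functions show nothing about the called genes as a whole. In the soleus Gpd2, the mitochondrial partner of Gpd1 in the glycerol phosphate shuttle, differed by -3.89 (SE 0.054, limma adjusted p = 9.16e-05), to a mean of 9.14. Subunits of the AMP-activated protein kinase, a sensor of low energy, were lower: Prkag3 by -3.52 and Prkab2 by -2.99. The M-band gene Myom3 was 3.20 higher in the soleus, the ketone body enzyme Bdh1 3.41, the triglyceride synthesis enzyme Dgat2 2.85, the scaffold Homer2 3.73 and Ostn, which encodes the secreted peptide musclin, 3.13. Acot1, a close paralog of Acot2, was 4.38 higher.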
